A study of Mus musculus with 3 samples.

Results

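The axon guidance ligands and receptors described here are 68 genes chosen by symbol among the 33696 genes of the tables. They comprise 7 secreted and 13 membrane-bound semaphorins, 9 plexins, 2 neuropilins, 5 A and 3 B ephrins, 9 EphA and 5 EphB receptors, 3 Slits, 4 Robos, 3 netrins, and Dcc with its 4 relatives Unc5a to Unc5d. Their mRNA was counted cell by cell in mouse embryo trunk (from cervical level 3 to thoracic level 2, without the forelimbs and the organs of the thorax) at embryonic days E11.5, E12.5 and E13.5. Each stage is a single 10x Genomics 3′ library made from a pool of 3 littermates dissociated with TrypLE. The labels give no genotype, strain or treatment for any of the 3 groups, and the sex of the embryos is not stated.

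Guidance cues are proteins that steer growing axons and migrating cells. Semaphorins act on plexins, with neuropilins as co-receptors for the secreted members, and ephrins bind Eph receptors on neighbouring cells. Slits repel cells that carry Robo receptors, and netrins attract through Dcc or repel through Unc5 receptors. In the embryonic spinal cord the floor plate at the ventral midline secretes netrin and Slits, commissural neurons cross it using Dcc and the divergent Robo family member Robo3, and the same families pattern vessels, meninges, somites and muscle.

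Between 6103 and 6923 cells per library were kept, each with at least 4000 unique molecular identifiers (UMIs, one per captured mRNA molecule), with median UMIs of 12320, 10954.5 and 10170 at the 3 stages. A level is the UMIs of a gene summed over a class of cells, scaled to a total of 1000000 UMIs in that class (CPM), with an exact Poisson 95% interval that covers counting error only. Cell classes were rebuilt by clustering without the guidance genes, and were named from marker genes. With 1 library per stage there is no replicate, no p-value is given, and a difference between stages compares 3 libraries. Between 20 and 26 cell barcodes per library were also present in another library. The share of RNA that could come from free RNA in the droplets was read from globin and from collagen transcripts, and the lower estimate was used. It was at most 2.36%, 7.36% and 21.6% in the 5 lineages compared between stages, in order of stage. In spinal neurons the globin estimate was higher than the one used, 7.68% at E12.5 and 64% at E13.5. Mesenchymal cells in which Xist but no Y-linked gene was detected numbered 1363 of 2357, 675 of 3104 and 4541 of 4726 in order of stage, so the sex mix of the pools differed.

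Robo3, Ephb4 and Slit2 are the genes the contrasts below turn on. Robo3 and Ephb4 were the genes furthest apart between spinal neurons and mesenchyme in each direction, and Slit2 marked motor neurons and both midlines of the cord. The 250 bases before their annotated starts (RefSeq, mouse build GRCm38.p6, an older build than the GRCm39 reference of the count tables) are printed 5′ to 3′ on the strand of the gene. Capitals mark TAATTA, a core bound by many homeodomain factors. CAGCTG and CATATG, E-boxes of the kind bound by basic helix-loop-helix factors, were searched too. All of these read the same on both strands.
Robo3, chr9:37433176-37433425, minus strand: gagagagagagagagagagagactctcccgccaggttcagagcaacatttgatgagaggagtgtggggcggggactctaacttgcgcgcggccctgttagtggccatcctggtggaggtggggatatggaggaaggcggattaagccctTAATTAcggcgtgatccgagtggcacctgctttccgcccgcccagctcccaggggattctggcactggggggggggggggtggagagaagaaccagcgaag
Ephb4, chr5:137349859-137350108, plus strand: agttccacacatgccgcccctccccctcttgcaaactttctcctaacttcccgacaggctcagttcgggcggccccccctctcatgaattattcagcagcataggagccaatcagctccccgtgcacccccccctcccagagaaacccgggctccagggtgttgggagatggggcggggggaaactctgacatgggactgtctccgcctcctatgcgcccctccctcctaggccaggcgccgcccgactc
Slit2, chr5:47982905-47983154, plus strand: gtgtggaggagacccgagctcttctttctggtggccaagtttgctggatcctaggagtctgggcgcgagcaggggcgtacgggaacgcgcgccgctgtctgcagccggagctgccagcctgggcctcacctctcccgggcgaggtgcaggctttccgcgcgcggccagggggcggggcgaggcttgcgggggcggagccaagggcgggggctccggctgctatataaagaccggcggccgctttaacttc
The Robo3 sequence holds 1 TAATTA and the others hold none of the 3 motifs. GC content was 61.2% in Robo3, 64% in Ephb4 and 69.6% in Slit2, and the Slit2 sequence has 25 CpG dinucleotides against 12 in each of the others. The table holds 58 of the 68 genes. In all 32851 promoter sequences of this length, TAATTA was present in 4.84%, CAGCTG in 13% and CATATG in 3.46%. TAATTA was in 3 of the 58 guidance genes (Efna1, Epha5 and Robo3), CAGCTG in 11 and CATATG in 0. A guidance gene counts when any of its sequences holds the motif, whereas the percentages count single sequences, 32851 from 27025 genes. A match is a run of letters and no measured binding.

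The genes were next counted by the cell types they were found in. A gene counts as found in a class at 10 CPM or more on at least 10 UMIs. Of the lineages with at least 50 cells (10, 8 and 10 in order of stage) the median gene was found in 3, and 54, 56 and 59 genes were found in at least one. 0 genes were found in all of them, erythroid cells included. 7 genes were not found in a lineage of that size in any library: Epha6, Epha8 and Epha10, Ephb6, Sema4f, Unc5a and Unc5d. Spinal neurons held 36, 35 and 34 of the 68 at the 3 stages, mesenchyme 31, 36 and 34, and erythroid cells 0, 0 and 2. The erythroid value at E13.5 falls in the library with the highest estimate of free RNA, whose part in it was not tested.

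**Figure D1:**
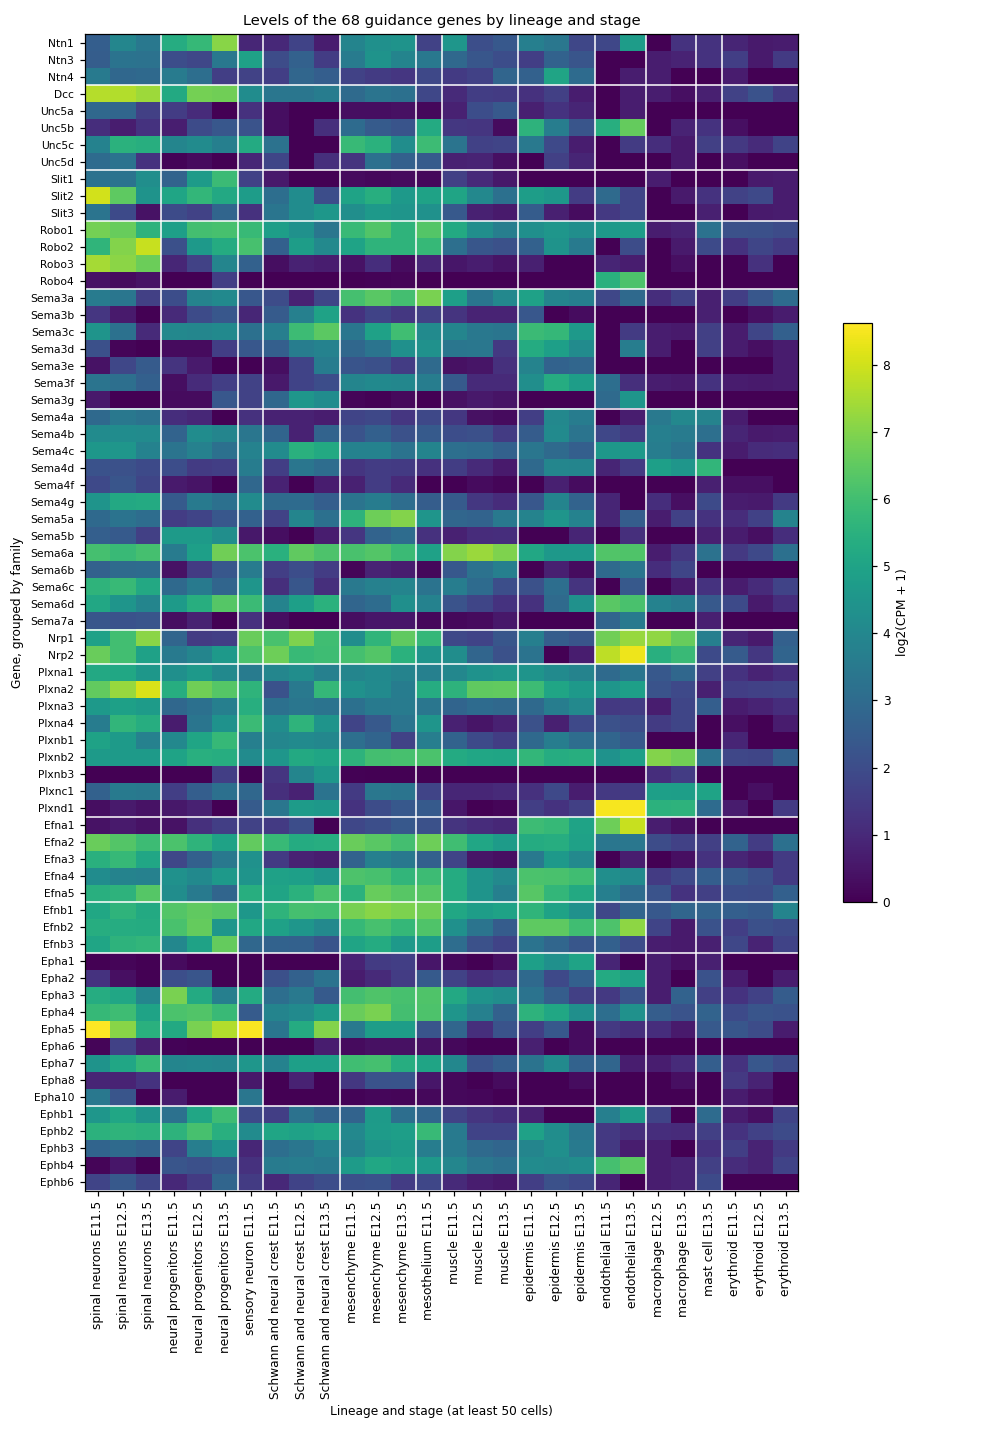
Level of each of the 68 genes, as log2(CPM + 1), in rows grouped by family, and each lineage and stage with at least 50 cells in columns. Robo3 is bright in the spinal neuron columns and Plxnd1 in the endothelial columns, and the erythroid columns are dark for nearly every gene.

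37 of the 68 genes reached 50 CPM in a class of at least 50 cells, and the class where each was highest fell into a few groups. 14 peaked in spinal neuron classes, 10 in mesenchymal classes, 6 in endothelial cells, 4 in neural progenitors, and 1 each in macrophages, mesothelium and myocytes. For Efna2, Efnb2, Efnb3, Epha3, Ephb1, Ephb2, Nrp1, Plxna4, Plxnb1, Sema3a, Sema6d and Unc5c the interval of the highest class overlaps that of the next, which belongs to another group, so their place is not settled by these counts. Levels of different genes are not compared, because capture at the 3′ end differs from gene to gene.

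Among the ligands of the spinal cord at E11.5, Slit2, a secreted repellent, was most concentrated in motor neurons at 1334 CPM (1283 to 1387) over 96 cells. After each cell was thinned to 4000 UMIs, 95.8% of motor neurons held a Slit2 UMI against 0.769% of erythroid cells, which should lack it and had a median of 25714 UMIs before thinning. The floor plate, only 18 cells, had 464 CPM and the roof plate, 22 cells, 460.2 CPM. The remaining spinal neuron classes at this stage lay far below, with 69.3 CPM in the cells of no named class and 58.9 CPM in the inhibitory and Lhx1/5 interneurons. Slit2 transcript was thus high at both midlines and in motor neurons of the same library. At E12.5 the 10 motor neurons left still read 1209 CPM.

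Ntn1, the netrin made by floor plate and ventricular zone, read 612 CPM (509 to 729.7) in the floor plate at E11.5, and 94.4% of those thinned cells had a UMI. It was 0 in the roof plate (upper 95% limit 16.5 CPM), 74.6 CPM in neurogenic progenitors and 25.8 CPM in the other progenitors. The floor plate also had Slit1 at 158 CPM and Slit3 at 123 CPM. In the roof plate Slit1 was 80.4 and Slit3 17.9 CPM. Of the classes below 50 cells, the 10 roof plate cells at E12.5 had the highest Sema3c of any class with 5 or more cells, 375 CPM, and Efnb3, a membrane-bound B ephrin, at 583 CPM there. These small classes are described only.

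The receptors divided the same neurons in other ways. Dcc, the attractive netrin receptor, read 308 CPM in dI1-like neurons at E11.5, 306 CPM in inhibitory and Lhx1/5 interneurons and 237 CPM in dorsal excitatory neurons. It was 113 CPM in V2 neurons, 47.6 CPM in motor neurons and 0 in the floor plate (upper 95% limit 18.2 CPM). Robo3, which commissural neurons carry before crossing the midline, had a steeper order: 549.7 CPM in the inhibitory and Lhx1/5 class, 320 CPM in dorsal excitatory neurons, 285 CPM in dI1-like neurons, 150.1 CPM in the cells of no named class, 7.41 CPM in motor neurons and 4.86 CPM in V2 neurons. Motor neurons and V2 neurons were the named classes with little Robo3. Their intervals overlap, from 4.05 to 12.4 in motor neurons and 1.78 to 10.6 in V2 neurons.

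Robo1 and Robo2, the receptors through which Slits repel, were present in all of these neurons. Robo1 lay between 58.8 CPM in motor neurons and 161 CPM in dorsal excitatory neurons. Robo2 was highest in V2 neurons at 100.5 CPM and lowest in the inhibitory and Lhx1/5 class at 15.9 CPM, the class with the most Robo3. Motor neurons had both neuropilins, Nrp1 at 130.2 CPM and Nrp2 at 188 CPM, together with Unc5c, a repulsive netrin receptor, at 63.0 CPM. Nrp1 was 8.59 CPM in the inhibitory and Lhx1/5 class and 2.82 CPM in dorsal excitatory neurons. Epha5, an ephrin-A receptor, was 501 CPM in the cells of no named class, 424 CPM in motor neurons, 391 CPM in V2, 382 CPM in dI1-like and 383 CPM in the 87 sensory neurons. In dorsal excitatory neurons it was only 7.05 CPM (2.29 to 16.4), and in the inhibitory and Lhx1/5 class its interval ran from 6.74 to 24.1 CPM. Epha5 was thus low in both of these classes, which had high Robo3. It was not low in dI1-like neurons, whose Robo3 was near that of dorsal excitatory neurons. The inhibitory and Lhx1/5 class of E11.5 was a single sub-cluster of 101 cells. In the first clustering, before the neurons were clustered again, its name covered a cluster with 411 cells of E11.5. The Epha5, Robo2 and Robo3 levels of this class therefore describe that sub-cluster, not every cell the name could cover.

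**Figure D2:**
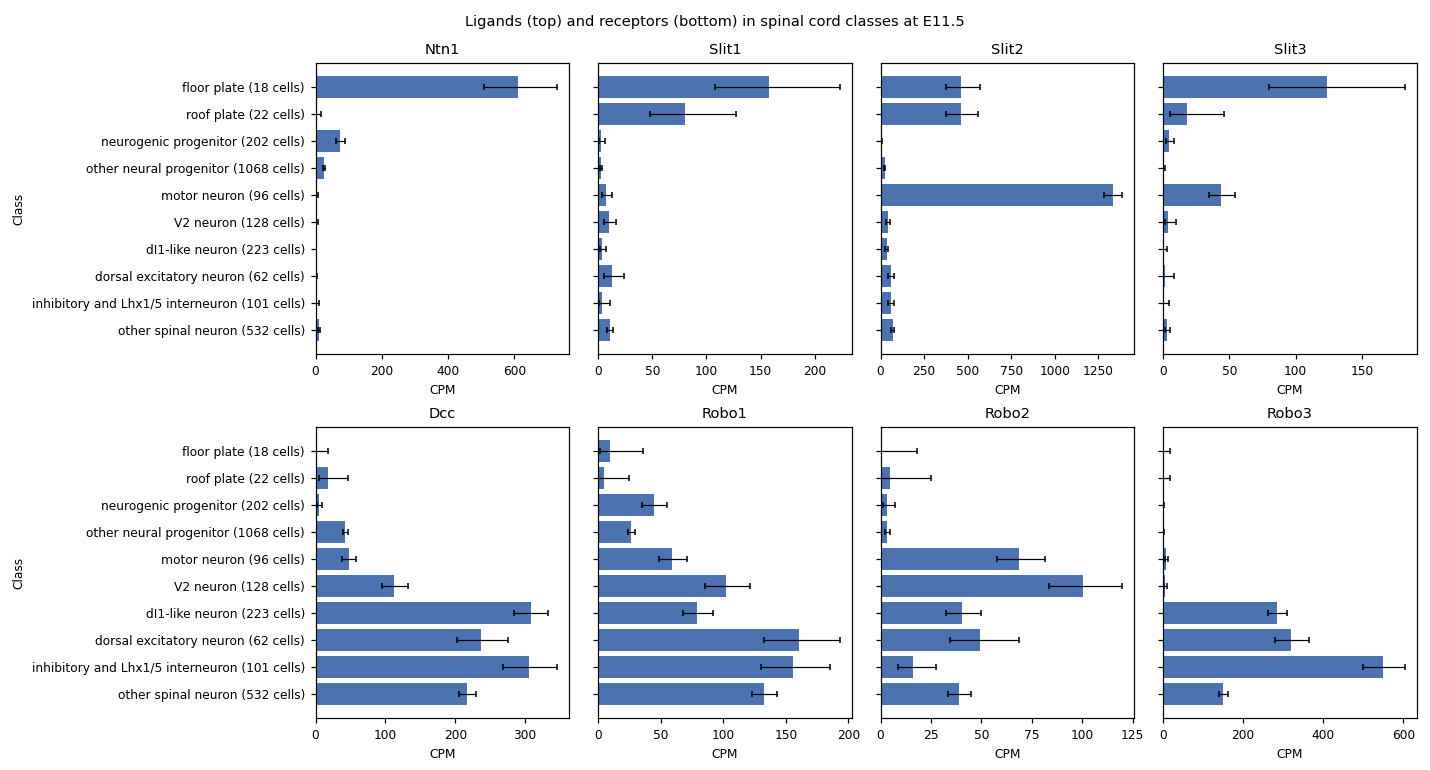
Levels in CPM at E11.5, with ligands in the top row and receptors in the bottom row, one bar per spinal cord class with its number of cells and error bars giving exact Poisson 95% intervals. Slit2 stands out in motor neurons, Ntn1 in the floor plate, and Robo3 in the dorsal, dI1-like and Lhx1/5 classes.

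Spinal neurons were next set against mesenchyme within each library, to find the guidance genes that mark neurons rather than the tissue their axons cross. A gene was called when its CPM differed at least 2-fold in the same direction in all 3 libraries with at least 20 UMIs in each. 63 of the 68 had enough UMIs, and 17 were higher in neurons and 10 lower. Of all 14290 genes with enough UMIs, 13.2% were higher and 16.4% lower, so the guidance genes held a larger share on the neuronal side and a similar share on the other. Their median log2 ratio was 0.12, beside -0.02 for all genes.

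Among receptors higher in neurons, Robo3 read 174, 138 and 102 CPM at the 3 stages in neurons and 0.339, 1.18 and 0.233 in mesenchyme. The log2 ratios were 9, 6.87 and 8.78. Every neuron value lay far above every mesenchyme value. At E12.5 the thinned share of cells with a Robo3 UMI was 21.6% of neurons, 0.193% of mesenchymal cells and 0.518% of erythroid cells. Median UMIs before thinning were 8120.5, 11620.5 and 18776. The erythroid share comes from only 193 cells and is coarse, so the mesenchymal share cannot be told apart from background. Dcc read 203, 196 and 163 CPM in neurons and 6.94, 9.09 and 8.11 CPM in mesenchyme, with log2 ratios of 4.87, 4.43 and 4.33. Plxna2, a plexin for secreted and transmembrane semaphorins, read 92.5, 157 and 279 CPM in neurons and 19.7, 16.5 and 11.2 CPM in mesenchyme. Its log2 ratios, 2.23, 3.25 and 4.64, widened from stage to stage as the neuronal level climbed and the mesenchymal level dropped. Plxna3, Plxna4, Plxnb1 and Unc5a were the other receptors on this side.

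Among ligands higher in neurons, Slit1 read 8.53, 8.77 and 18.4 CPM against 0.185, 0.126 and 0.194 CPM, with log2 ratios of 5.53, 6.13 and 6.56. The A ephrin Efna3 read 43.8, 54.4 and 33.2 CPM in neurons and 5.52, 12.48 and 9.86 CPM in mesenchyme. The remaining ligands on this side were Ntn4 and 7 membrane semaphorins: Sema4a, Sema4b, Sema4f, Sema4g, Sema6b, Sema6c and Sema7a. Sema6c, a transmembrane semaphorin of developing neurons, read 47.9, 55.8 and 35.6 CPM against 10.2, 12.7 and 13.9 CPM. Several of these were low in absolute terms, such as Sema7a at 3.93, 3.49 and 3.88 CPM in neurons, with log2 ratios of 3.99, 3.03 and 3.12. The secreted semaphorins had no gene on the neuronal side.

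Of the 10 genes higher in mesenchyme, 6 were ligands. Sema3a, a secreted repellent of sensory and motor axons, read 66.5, 83.6 and 64.6 CPM in mesenchyme and 10.9, 9.40 and 2.12 CPM in neurons, with log2 ratios of -2.60, -3.15 and -4.93. Sema5a, a transmembrane semaphorin with thrombospondin repeats, read 46.7, 104 and 129 CPM against 6.69, 8.68 and 7.41 CPM, with log2 ratios of -2.80, -3.59 and -4.12. The ephrin Efna4 read 73.8, 69.1 and 49.9 CPM against 17.3, 13.3 and 12.7 CPM, and the X-linked Efnb1 114, 136 and 119 CPM against 34.4, 47.8 and 36.7 CPM. In all of these the mesenchymal level was above the neuronal level of every library. Slit3, Efna1, Ephb3, Plxnd1 and Unc5b made up the rest with Ephb4.

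Ephb4, the receptor for Efnb2 best known from veins, read 25.6, 34.0 and 29.3 CPM in mesenchyme and 0.0836, 0.447 and 0 CPM in neurons. The log2 ratios were -8.26 (-13.56 to -5.78) at E11.5 and -6.25 (-7.88 to -5.02) at E12.5. At E13.5 the neurons had 0 UMIs, and the ratio set against a floor of 3 UMIs over the class was -4.79, a bound. Plxnd1 and Efna1 were called lower in neurons from low levels on both sides: Plxnd1 in mesenchyme was 1.42, 3.04 and 4.21 CPM, while endothelial cells had 364, 336 and 375 CPM.

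**Figure D3:**
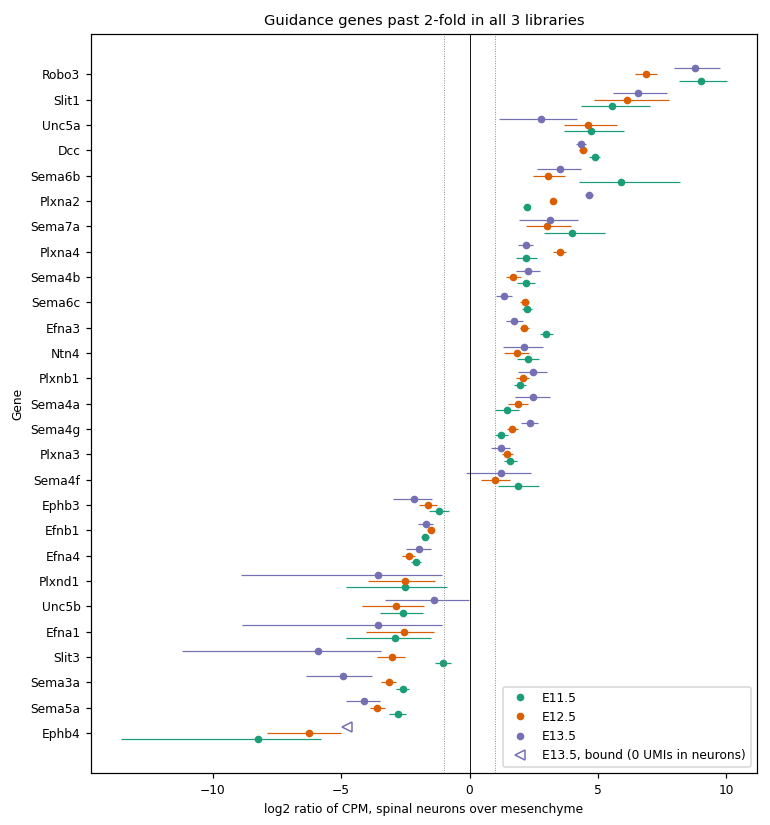
log2 ratio of CPM in spinal neurons over mesenchyme for the 27 genes past 2-fold in all 3 libraries, one point per library with its exact 95% interval, and lines at 2-fold. Robo3 lies furthest to the right and Ephb4 furthest to the left.

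The neural progenitors were compared with the spinal neurons in the same way. 42 genes had enough UMIs in every library, and 1 was higher in progenitors and 9 lower (of all 9663 genes, 5.76% were higher and 9.31% lower). The median log2 ratio of the guidance genes was -0.75, against -0.08 for all genes. Ntn1 was the one gene higher in progenitors, at 39.2, 53.9 and 137 CPM against 4.93, 14.5 and 9.88 CPM in neurons, with log2 ratios of 2.99, 1.89 and 3.79. Without the floor plate cells, the Ntn1 ratios were 2.68, 1.80 and 2.79.

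Of the 9 genes lower in progenitors, 5 were receptors or co-receptors. Robo3 read 0.918, 2.22 and 14.1 CPM in progenitors, with log2 ratios of -7.56, -5.96 and -2.86. Without the floor plate cells it was 0 CPM at E13.5, with a bound of -3.95, so the level at that stage was that of 6 cells. Robo2 read 3.28, 23.9 and 38.3 CPM against 49.2, 131 and 238 CPM in neurons, with log2 ratios of -3.91, -2.45 and -2.63. Nrp1 read 6.04, 1.85 and 2.01 CPM against 29.8, 63.2 and 139 CPM, with log2 ratios of -2.30, -5.09 and -6.11. The others were Plxna3, Plxna4, Efna3, Efna5, Sema4g and Sema6c. The progenitor lineage includes 2 sub-clusters with over 2000 CPM in the 10 neuronal markers, 136, 127 and 6 of its 1310, 628 and 72 cells. Without them the counts were again 1 higher and 9 lower, with Dcc now among the lower genes at log2 -2.83, -1.87 and -1.99, and Plxna4 no longer among them. Without floor plate cells Sema5a joined the lower genes and Plxna3 left them.

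Within the interneurons, several receptors changed level between stages, and the cells of a class are different sub-clusters at each stage. The dorsal excitatory neurons were first 62 cells led by Phox2a and Tlx1, then 383 cells in sub-clusters led mainly by Tac1 or Drgx, and last 284 cells led mainly by Nfix or Cck. In this class Robo3 read 320, 23.6 and 11.8 CPM in order of stage (log2 -3.76, -4.16 to -3.38 over the first interval). Nrp1, a co-receptor for secreted semaphorins, went the other way at 2.82, 101 and 192 CPM (log2 5.16, 3.30 to 8.21). Robo2 read 49.3, 111 and 314 CPM (log2 1.17, 0.67 to 1.72, then log2 1.50, 1.31 to 1.70). Thus the later dorsal excitatory cells had little Robo3 and more Robo2 and Nrp1 than the earlier ones. Dcc read 237, 342 and 159 CPM and was highest at E12.5, and Robo1 read 161, 105 and 45.4 CPM.

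The inhibitory and Lhx1/5 interneurons, 101, 522 and 130 cells, had Robo3 at 549.7, 268 and 306 CPM (log2 -1.04, -1.20 to -0.87 over the first interval, log2 0.19, -0.01 to 0.39 over the second). The 101 cells of E11.5 were a single sub-cluster led by Sox2ot, and other sub-clusters carried the name later. Their Robo2 read 15.9, 142 and 72.5 CPM and their Nrp1 8.59, 71.7 and 56.6 CPM. Unc5c read 3.68, 111 and 116 CPM (log2 4.91, 3.35 to 7.19), while in dorsal excitatory neurons it stayed at 0, 1.55 and 10.1 CPM. Plxna4, a plexin that signals with neuropilins, was highest at E12.5 in this class, at 73.4 CPM (log2 2.44, 1.58 to 3.46), and 32.0 CPM a day later. So Robo3 and Unc5c separated the later interneuron classes in the same direction, and Nrp1 and Robo2 were lower in the inhibitory and Lhx1/5 class than in the dorsal class at E13.5.

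**Figure D4:**
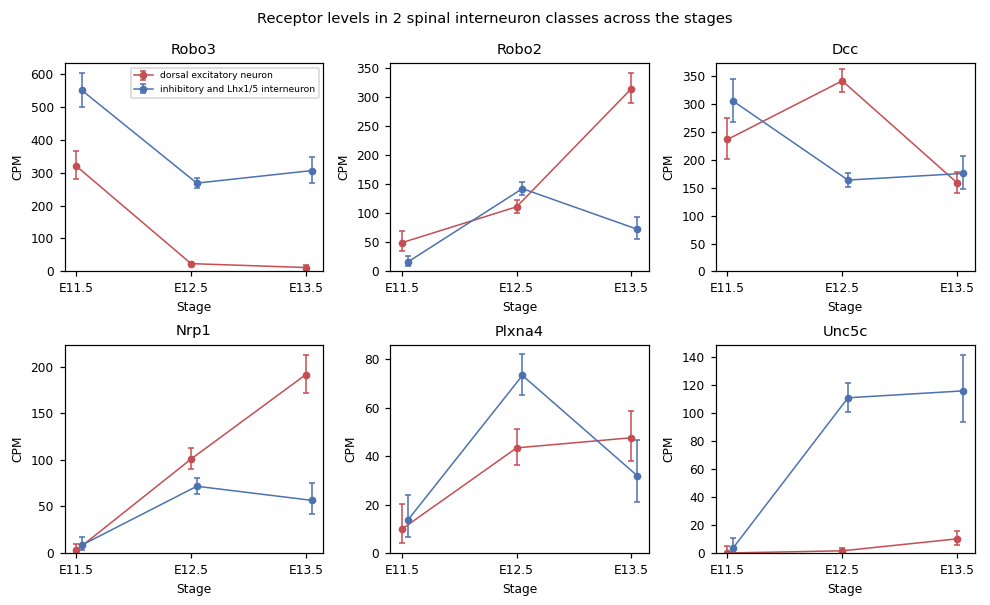
Level in CPM of receptors in the dorsal excitatory and the inhibitory and Lhx1/5 interneurons at the 3 stages, with exact Poisson 95% intervals as error bars. Robo3 drops to 11.8 CPM in the dorsal class and is 306 CPM in the other at E13.5.

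In spinal neurons as a whole, from E11.5 to E12.5, 60 genes had enough UMIs and 7 were at least 2-fold higher and 8 lower (background, the shares of all genes with enough UMIs: 7.25% and 5.44%). The median was 0.01, against 0.08 for all genes. Receptors on the higher side were Plxna4 at 11.2 to 49.8 CPM (log2 2.15, 1.88 to 2.43), Unc5c at 13.1 to 44.9 CPM (log2 1.77, 1.51 to 2.04), Robo2 at 49.2 to 131 CPM (log2 1.41, 1.27 to 1.55), Nrp1 at 29.8 to 63.2 CPM and the scarce Epha6. The ligands Ntn1, 4.93 to 14.5 CPM, and Sema3e were higher too. On the lower side were Epha5 at 394 to 135 CPM (log2 -1.54, -1.63 to -1.46), Slit2 at 259 to 87.8 CPM (log2 -1.56, -1.66 to -1.45), Sema3c, Sema3d, Sema3b, Slit3, Epha2 and Epha10.

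Motor neurons were 96 of 1142, 10 of 1232 and 0 of 442 spinal neurons in order of stage, and they held 81.5% of the Slit2 UMIs, 80.1% of Sema3c and 78.3% of Slit3 at E11.5. Without motor neurons, Slit2 went from 56.8 to 60.8 CPM (log2 0.10, -0.07 to 0.26), and Sema3c from 4.96 to 4.86 CPM (log2 -0.03, -0.62 to 0.56). The lower Slit2 and Sema3c of the first interval were therefore not past 2-fold in the other neurons. Slit3 was not past it either, but its interval (log2 -0.39, -1.35 to 0.55) reached beyond 2-fold lower. Sema3d had too few UMIs in the other neurons to be compared (interval -6.41 to 6.18). The dorsal excitatory and the inhibitory and Lhx1/5 classes, both low in Epha5 at E11.5, were 62 and 101 of 1142 neurons there and 383 and 522 of 1232 a day later. In the first clustering, before the neurons were clustered again, the inhibitory and Lhx1/5 name covered a cluster with 411 cells of E11.5. The share of this class at E11.5 therefore depends on the naming. In the cells of no named class Epha5 was 501 CPM and then 315 CPM. Epha5 remained lower without motor neurons, 388 to 129 CPM (log2 -1.58, -1.67 to -1.50), and Nrp1 was higher by more, 10.9 to 61.5 CPM (log2 2.49, 2.20 to 2.80).

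From E12.5 to E13.5 in spinal neurons, 2 of 56 genes were higher and 13 lower (background 3.2% and 6.38%). The median was -0.34, against -0.06 for all genes. Nrp1 was higher again, 63.2 to 139 CPM (log2 1.13, 0.95 to 1.31), as was Slit1, 8.77 to 18.4 CPM (log2 1.07, 0.55 to 1.57). Lower were Slit2 at 87.8 to 20.5 CPM (log2 -2.10, -2.51 to -1.72), Epha5 at 135 to 43.8 CPM (log2 -1.62, -1.90 to -1.36), Nrp2 at 63.6 to 29.3 CPM, Robo1 at 96.5 to 46.2 CPM and Epha3 at 33.4 to 14.1 CPM. The scarcer Sema3a, Sema3c, Sema5b, Slit3, Unc5a, Unc5d, Epha6 and Epha10 completed that side. Without motor neurons Slit2 was lower all the same, 60.8 to 20.5 CPM (log2 -1.57, -1.98 to -1.18), and Nrp2, 57.0 to 29.3 CPM (log2 -0.96, -1.31 to -0.63), was just inside 2-fold. Sema5b (log2 -0.96, -2.48 to 0.27) was inside it too, and Sema3e was then past it on the higher side (log2 1.40, 0.26 to 2.49). The dorsal excitatory share of the neurons was 31.1% at the earlier and 64.3% at the later stage, when this class held 87% of the Nrp1 UMIs and 89.4% of the Plxna2 UMIs. The cells of no named class, whose high Epha5 at E12.5 is given above, were 301 of 1232 neurons there and 24 of 442 at E13.5. The part of that shift in the lower Epha5 was not tested.

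In neural progenitors from E11.5 to E12.5, 20 of 53 genes were higher and 3 lower (background 10.6% and 4.07%), with a median of 0.46 against 0.12 for all genes. The ratios printed hold that shift of all genes. With it removed 20 genes passed in place of 23, and Efnb3 (0.91), Efna3 (0.90) and Plxnb1 (0.97) were inside 2-fold. Receptors formed the larger block: Epha5 at 36.8 to 117 CPM (log2 1.67, 1.50 to 1.84), Dcc at 36.5 to 113 CPM (log2 1.62, 1.45 to 1.79), Plxna2 at 40.7 to 106 CPM (log2 1.39, 1.22 to 1.55), Robo1 at 28.2 to 65.5 CPM, Robo2 at 3.28 to 23.9 CPM and Ephb1 at 8.33 to 33.5 CPM. Among ligands, Slit1 went from 5.71 to 25.7 CPM (log2 2.17, 1.78 to 2.58), Sema3a from 3.15 to 13.3 CPM, Sema6a from 11.1 to 28.3 CPM and Efnb3 from 14.8 to 30.4 CPM. Epha3, 117 to 37.6 CPM (log2 -1.64, -1.86 to -1.43), had the most UMIs of the 3 lower genes. The others were Nrp1 (log2 -1.70, -2.81 to -0.76) and Sema3e. Neuronal marker transcripts in the lineage were 624 CPM at E11.5 and 1445 CPM at E12.5. Without the sub-clusters rich in them, Dcc went from 28.5 to 53.5 CPM (log2 0.91, 0.67 to 1.14), which is inside 2-fold. The 10 roof plate cells at E12.5 held 59.8% of the Efnb3 UMIs and 56.2% of the Slit2 UMIs of the lineage. No comparison was made without them, so the course of Efnb3 in the other progenitors was not tested.

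From E12.5 to E13.5, when only 72 progenitors were left, 5 of 41 genes were higher and 3 lower (background 8.13% and 9.01%). The higher genes were Sema6a at 28.3 to 107 CPM (log2 1.91, 1.43 to 2.37), Efnb3 at 30.4 to 94.7 CPM (log2 1.64, 1.14 to 2.12), Ntn1 at 53.9 to 137 CPM (log2 1.35, 0.94 to 1.73), Slit1 at 25.7 to 58.4 CPM (log2 1.18, 0.55 to 1.77) and Plxna4. The ligand Efnb2 was lower, 94.8 to 22.1 CPM (log2 -2.10, -3.11 to -1.25), as were Epha3 and Ntn4. The intervals of Plxna4 (-0.02 to 2.12) and of Ntn4 (-7.25 to 0.64, with 1 UMI at the later stage) include no change. The 6 floor plate cells at E13.5 held 54.4% of the Ntn1 UMIs. Without floor plate cells Ntn1 went from 50.6 to 68.6 CPM (log2 0.44, -0.15 to 0.98), and neither Ntn1 nor Slit1 was past 2-fold, while Sema6a, 28.5 to 115 CPM (log2 2.01, 1.53 to 2.48), and Efnb3 still were.

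In mesenchyme from E11.5 to E12.5, 16 of 61 genes were higher and 0 lower (background 13.8% and 2.14%). The median was 0.41, against 0.16 for all genes. The ratios printed hold that shift of all genes, and with it removed 12 genes passed in place of 16. Efna5 (0.99), Epha8 (0.98) and Plxnd1 (0.94) were then inside 2-fold, and Epha1 was just below the line. Ligands and receptors were both among them. Sema5a went from 46.7 to 104 CPM (log2 1.16, 1.07 to 1.25), Efna5 from 44.3 to 98.4 CPM (log2 1.15, 1.06 to 1.24) and Sema3c from 9.47 to 29.7 CPM (log2 1.65, 1.47 to 1.83). Among receptors, Nrp1 went from 17.8 to 48.9 CPM (log2 1.46, 1.33 to 1.60), Ephb1 from 5.77 to 24.7 CPM (log2 2.10, 1.87 to 2.33), Epha5 from 10.2 to 27.2 CPM and Plxnc1 from 1.76 to 9.77 CPM. The rest were at or below 12.48 CPM, the later level of Efna3: Epha1, Epha8, Plxnd1, Robo3, Unc5d, Sema4f, Sema5b and Sema6b. The share of mesenchymal cells with Robo3 could not be told apart from that of the 193 erythroid cells at E12.5. The Robo3 ratios in mesenchyme over both intervals are therefore not read as a difference.

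From E12.5 to E13.5 in mesenchyme, 4 of 63 genes were higher and 4 lower (background 4.19% and 4.93%), close to the share of all genes. Sema3c went on from 29.7 to 62.5 CPM (log2 1.07, 0.98 to 1.17), and Sema6d, Sema3d and Plxna4 were higher. Unc5c was lower, 44.0 to 17.6 CPM (log2 -1.32, -1.44 to -1.21), as were Ephb1, 24.7 to 7.69 CPM (log2 -1.68, -1.86 to -1.51), Robo3 and Plxnb1. Nrp1 read 17.8, 48.9 and 90.5 CPM over the 3 stages, and its second step, 0.89, was inside 2-fold. The mesenchyme was made of other clusters at each stage: 958 sclerotomal and 718 cells led by Gsc and Bdnf of 2357 at E11.5, 1574 tendon-like cells of 3104 at E12.5, and 1593 dermal, 1376 tendon-like and 1254 cells led by Clec3b and Cxcl13 of 4726 at E13.5.

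Sema3c, a secreted semaphorin that attracts some axons and patterns vessels, differed in its course between mesenchymal classes over the second interval. It went from 10.2 to 75.3 CPM in dermal cells (log2 2.88, 2.45 to 3.34), from 6.46 to 64.0 CPM in the mesenchyme led by Clec3b and Cxcl13 (log2 3.31, 2.26 to 4.63) and from 18.3 to 44.5 CPM in tendon-like cells (log2 1.28, 1.10 to 1.47). Chondrogenic cells had the most, 112 and then 216 CPM (log2 0.95, 0.74 to 1.16). It was inside 2-fold in the mesenchyme led by Pitx1 and Actg2, 9.71 and then 15.0 CPM (log2 0.63, -0.28 to 1.60), and in meningeal cells, 44.4 and then 34.2 CPM (log2 -0.37, -0.80 to 0.04). Its relative Sema3d went from 2.50 to 33.8 CPM in dermal cells (log2 3.75, 2.90 to 4.76). The dermal class joins 3 clusters, and the one led by Dpt and Cemip had 9 cells at the earlier and 700 at the later stage before doublets were removed, so its makeup differed and its part in these dermal values was not tested. Ephb1 went down, from 69.2 to 15.4 CPM in the mesenchyme led by Clec3b and Cxcl13 and from 34.6 to 8.11 CPM in tendon-like cells (log2 -2.10, -2.38 to -1.82). Slit2 in the mesenchyme led by Clec3b and Cxcl13 went from 102 to 18.6 CPM (log2 -2.45, -2.78 to -2.11).

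The meningeal cells, a single cluster of 165, 189 and 164 cells led by Vtn and Slc6a13 at all 3 stages, carried several Eph family genes at their highest. The leading genes of this cluster also include Rgs5, one of the markers used for mural cells of vessels, and no cluster was named mural. These levels therefore belong to the cluster as a whole. Epha7 read 318, 240.2 and 94.4 CPM, and the next class outside it had 120.2 CPM. Efnb1 read 199, 273 and 145 CPM and Efnb2 77.8, 147 and 87.8 CPM. Epha7 and Unc5c, at 95.2, 37.1 and 13.6 CPM, went down with stage. Epha4 read 41.6, 111 and 68.4 CPM and Robo1 15.5, 70.4 and 56.9 CPM, both lowest at E11.5. Epha8 was 47.4 CPM at E12.5, its highest level in any class of at least 50 cells, though the gene was not found in any whole lineage.

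Endothelial cells, 54 at E11.5 and 75 at E13.5, were the highest class for 6 of the genes that reached 50 CPM. Plxnd1, the endothelial plexin for Sema3e, read 364 CPM (330.5 to 401) and 375 CPM (346 to 406), intervals that overlap, and the next class had 46.1 CPM. After thinning, 53.3% of endothelial cells at E13.5 had a UMI and 0.769% of erythroid cells. Nrp2 read 217 and 338 CPM, Efna1 104 and 240.1 CPM, Ephb4 66.5 and 87.4 CPM, Unc5b 41.5 and 95.9 CPM, and Robo4 43.2 and 73.3 CPM. All of these are genes known from vessels. The last 5 each read higher in the E13.5 library, though for Ephb4 the intervals of both libraries overlap. Nrp2 was also present in motor neurons, 188 CPM at E11.5. Efnb2, the ephrin of arterial cells, read 72.5 and 142 CPM, and meningeal cells reached 147 CPM. The 31 endothelial cells at E12.5 fell below the minimum and had Plxnd1 at 336 and Nrp2 at 507 CPM. Macrophages had Plxnb2 at their highest, 130.4 CPM at E12.5 and 108 CPM in the later library. Their Nrp1 was 146 and 97.2 CPM.

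In muscle from E11.5 to E12.5, 2 of 49 genes were higher and 16 lower (background 3.62% and 5.41%), with a median of -0.79 against -0.08 for all genes. After thinning to 4000 UMIs, 9 genes passed in place of 18. Among ligands, Ntn1 went from 22.0 to 3.17 CPM (log2 -2.80, -3.40 to -2.23), Sema3a from 28.5 to 9.19 CPM (log2 -1.63, -2.01 to -1.27) and Slit2 from 32.1 to 15.4 CPM (log2 -1.06, -1.37 to -0.75), with Slit1, Slit3, Sema3f, Sema4g, Efna3, Efnb2 and Efnb3. Among receptors, Robo1 went from 36.7 to 18.1 CPM (log2 -1.02, -1.31 to -0.74), Nrp2 from 17.5 to 6.02 CPM, Epha7 from 15.0 to 3.47 CPM and Ephb2 from 10.4 to 2.35 CPM, with Epha5 and Unc5c. Sema6b and Unc5a were higher. The mix of cells moved too: myocytes were 75 of 341 muscle cells at E11.5 and 172 of 438 at E12.5, and the part of that shift was not tested.

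From E12.5 to E13.5 in muscle, 2 of 46 genes were higher and 3 lower (background 2.54% and 4.13%). Sema3d was lower, 9.80 to 1.67 CPM (log2 -2.55, -3.37 to -1.82), with Epha4 and Sema6c, and Ntn4 and Epha5 were higher. Sema6a, a transmembrane semaphorin, had the most UMIs of the guidance genes in muscle at every stage, 129, 159 and 124 CPM, and Plxna2 read 46.5, 90.7 and 93.7 CPM. Sema6a was most concentrated in myocytes at E11.5, 233 CPM, where the next class had 147 CPM.

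In Schwann and neural crest cells from E11.5 to E12.5, 17 of 41 genes were higher and 2 lower (background 8.77% and 3.56%), with a median of 0.73 against 0.07. Sema3c went from 11.9 to 59.3 CPM (log2 2.32, 1.78 to 2.88), Sema6a from 43.7 to 90.6 CPM (log2 1.05, 0.70 to 1.40) and Sema3g from 6.32 to 21.9 CPM. Among receptors, Epha5 went from 9.35 to 38.3 CPM (log2 2.03, 1.39 to 2.69), Plxna4 from 17.9 to 47.6 CPM (log2 1.41, 0.89 to 1.92), Robo2 from 5.31 to 26.6 CPM and Plxnb3 from 1.52 to 14.1 CPM. The other higher genes were Sema3b, Sema3d, Sema4c, Sema4d, Sema5a, Sema6d, Slit2, Plxna2, Plxnd1 and Epha7, and the lower ones Sema4b and Unc5c. These cells differ in depth, with median UMIs of 24709, 13333 and 9619 at the 3 stages, and after thinning to 4000 UMIs 8 genes passed 2-fold in place of 19. Sema3d (-0.05), Slit2 (-0.05) and Unc5c (0.22) then had the opposite sign.

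From E12.5 to E13.5 in the same cells, 4 of 39 genes were higher and 4 lower (background 3.89% and 3.23%). Epha5 went from 38.3 to 128 CPM (log2 1.74, 1.29 to 2.23) and Plxna2 from 10.2 to 52.5 CPM (log2 2.37, 1.52 to 3.34), with Sema3b and Sema3e higher too. Lower were Slit2, Plxna4 at 47.6 to 21.3 CPM, Epha3 and Robo1. After thinning, 3 genes passed in place of 8, and Robo1 was 1, in the opposite direction. Epha5 thus read 9.35, 38.3 and 128 CPM in Schwann and neural crest cells and 394, 135 and 43.8 CPM in spinal neurons over the same stages. The mix of spinal neuron classes differed between these stages, and its part in the Epha5 levels was not tested.

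**Figure D5:**
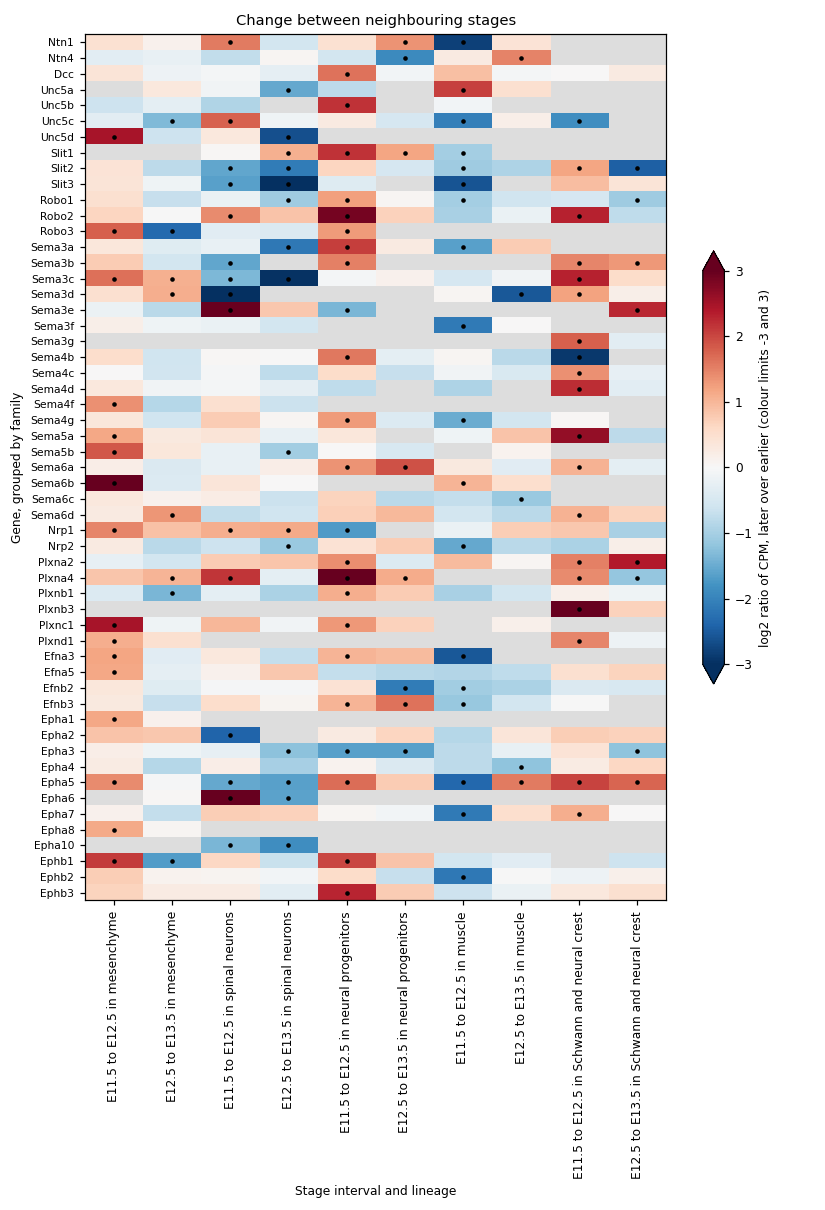
log2 ratio of CPM, later over earlier stage, for the genes past 2-fold in at least one stage comparison (rows, by family) in 5 lineages and 2 intervals (columns), with colours limited at 3. Of the 68 genes, 55 passed in at least one comparison and 13 in none, and the first muscle column leans down where the first progenitor and Schwann columns lean up.

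The wider pathway was read from 28 co-receptors and other cues and 41 effectors of the growth cone. Between neurons and mesenchyme, 11 of 27 tested co-receptors and cues were higher in neurons and 7 lower, with a median log2 ratio of 0.04. Of the effectors, 19 of 39 were higher and 2 lower, with a median of 1.27. Among all genes 13.2% were higher and 16.4% lower, with a median of -0.02. The adhesion molecule Cntn2 read 111.5, 115 and 98.5 CPM in neurons and 0.494, 1.13 and 0.272 CPM in mesenchyme. The collapsin response mediator Crmp1 read 1083, 898 and 633 CPM against 17.4, 17.3 and 8.79 CPM. Cxcl12, a chemokine of connective tissue, lay on the other side, with 3.09, 1.79 and 5.65 CPM in neurons and 175, 247 and 264 CPM in mesenchyme. Between progenitors and neurons, 3 of 22 co-receptors and cues were higher in progenitors and 8 lower, and 1 of 33 effectors was higher and 11 lower (background 5.76% and 9.31%).

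The same lists were counted across the first stage interval. In mesenchyme from E11.5 to E12.5, 9 of 26 co-receptors and cues and 6 of 39 effectors were higher, and 0 and 1 lower (background 13.8% and 2.14%). In muscle over that interval 0 of 18 and 3 of 35 were higher, and 3 and 3 lower (background 3.62% and 5.41%). In progenitors 5 of 22 and 7 of 37 were higher, and 0 and 1 lower (background 10.6% and 4.07%). In spinal neurons 3 of 26 and 1 of 38 were higher, and 1 and 0 lower (background 7.25% and 5.44%). In Schwann and neural crest cells 2 of 21 and 4 of 32 were higher, and 2 and 2 lower (background 8.77% and 3.56%). These lists were put together with earlier results of these data known, and their counts are descriptions.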

How the data were processed

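The deposited tables hold raw UMI counts per gene and droplet, which the authors obtained with Cell Ranger 8.0.1 and the GRCm39 reference, per the submitters' processing notes. The annotation release and the handling of intronic reads are not given in the sources used here. Droplets with at least 4000 UMIs and 500 genes and at most 10% mitochondrial UMIs were kept. Scrublet doublets, 181, 109 and 174 of the cells at the 3 stages, and sub-clusters with over 50% of them were removed. Cells were clustered (3000 variable genes, 40 components, 15 neighbours, Leiden resolution 1) with scanpy 1.11.5, without the guidance, globin, mitochondrial, ribosomal, Xist and Y-linked genes, and named from 249 markers of 31 classes. Progenitors and spinal neurons were clustered again.

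UMIs were summed per class and library, and ratios of CPM carry exact conditional binomial 95% intervals (scipy 1.17.1). A ratio was called at 2-fold or more with at least 20 UMIs, in classes of at least 50 cells. A class at 0 was set to a floor of 3 UMIs, which gives a bound. The ratios and their intervals were tested on simulated Poisson counts. The simulation did not cover the clustering, the naming, the removal of doublets or the variation between embryos. Shares used cells thinned to 4000 UMIs. Each gene was named where it reached 50 CPM, at its highest class, and where it passed 2-fold. The members and lists were chosen with earlier results of these data known, and the second clustering, the naming thresholds, the removal of doublet clusters, the free RNA estimate and the alternatives that leave out cells were chosen after seeing the data. Library totals were 103383215, 94155624 and 113402193 UMIs.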

Additional observations from a re-analysis of the deposited data

Results flagged for a closer look

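Over several intervals a gene was past 2-fold in opposite directions in a pair of lineages. The values below are the differences between the log2 ratios of each pair, and the differences were not tested, since each stage is 1 library.

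From E11.5 to E12.5 muscle was the lower member of most pairs. Ntn1 differed by 4.35 between spinal neurons and muscle, and Unc5c by 3.83 between the same lineages. Epha5 differed by 4.38 and Epha7 by 3.21 between Schwann and neural crest cells and muscle. Sema3a differed by 3.72, Robo1 by 2.24 and Efnb3 by 2.17 between neural progenitors and muscle. Roof plate cells held most of the Efnb3 UMIs of the later progenitors, and Efnb3 was not compared without them. Spinal neurons were the lower member for Sema3c, by 3.67, and Slit2, by 2.74, against Schwann and neural crest cells. Motor neurons held most of both transcripts in the earlier spinal neurons, and without them the Slit2 ratio was 0.10 there. The Slit2 ratio of Schwann and neural crest cells was -0.05 after thinning to 4000 UMIs. Nrp1 differed by 3.17 between mesenchyme, where it was higher at the later stage, and neural progenitors, where it was lower.

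From E12.5 to E13.5 Sema3c differed by 4.03 between mesenchyme and spinal neurons, and Sema3d by 3.64 between mesenchyme and muscle. The Sema3c ratio of spinal neurons (log2 -2.96, -5.26 to -1.37) rests on 3 UMIs at E13.5, and its direction reversed with called doublets kept. Epha5 differed by 3.37 between Schwann and neural crest cells and spinal neurons. The spinal neurons included 301 cells of no named class at the earlier and 24 at the later stage, and the part of that shift was not tested. Plxna4 differed by 2.18 between mesenchyme and Schwann and neural crest cells.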

How the results depend on the processing

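No paired analysis was possible because each stage is 1 library and the labels give no numbers that pair cells or embryos across stages. Of 1443 ratios of single genes under the alternatives, 1246 passed 2-fold again in the same direction, 188 kept their direction without passing and 9 reversed. The count of 1 gene higher in progenitors than in neurons was 2 with doublets kept and 3 without a minimum of UMIs. In progenitors from E12.5 to E13.5 the 8 genes became 14 with doublets kept, 14 after thinning and 24 without a minimum. In muscle the 18 genes of the first interval became 9 after thinning, and the 5 of the second became 8 with free RNA subtracted and 13 without a minimum. In Schwann and neural crest cells the 19 genes of the first interval became 8 after thinning and 31 without a minimum, and the 8 of the second became 3 and 21. No minimum counts genes with few UMIs, and thinning removes UMIs.

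The reversed log2 ratios were 0.71 for Sema3c in spinal neurons from E12.5 to E13.5 with doublets kept and, from E11.5 to E12.5, 0.10 for Slit2 in spinal neurons without motor neurons and -0.08 for Efna3 in progenitors among the cells in which Xist but no Y-linked gene was detected. After thinning they were 0.32 for Sema3e and -0.52 for Robo3 in progenitors over the first interval, 0.22 for Unc5c, -0.05 for Sema3d and -0.05 for Slit2 in Schwann and neural crest cells over the first, and 1 for Robo1 there over the second. The cause was not tested, except that leaving out motor neurons changes the cells summed. Cells with at least 6000 UMIs were too few for both comparisons that include progenitors at E13.5, and those Xist-positive cells too few for the Schwann and neural crest comparisons, so these were not run. Depth limits the classes under 100 cells and genes below about 5 CPM.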

Other observations

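Some classes below the minimum of 50 cells had high levels of single guidance genes, given here as values. Sympathetic neurons at E11.5, 22 cells, had Nrp2 at 251 CPM and Nrp1 at 177 CPM. The 6 floor plate cells at E13.5 had Ntn1 at 829.9 CPM and Slit1 at 269 CPM. The floor plate at E11.5 had Nrp2 at 375 CPM. The 14 V2 neurons at E12.5 had Epha5 at 585 CPM.

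The mast cell class, 89 cells at E13.5, held Sema4d at 49.7 CPM and Plxnc1 at 31.2 CPM, each its highest class of at least 50 cells. Its leading genes were Cpa3 and Cma1 but also H2-Aa, Cd74 and Ptprcap, so these levels belong to the cluster as a whole. The Plxnc1 interval overlaps that of macrophages (20.85 to 37.74 CPM). Epidermis held Epha1 at 30.8 CPM at E13.5 and Ntn4 at 31.7 CPM at E12.5. Mesothelium at E11.5, 385 cells, had the highest Sema3a, 116 CPM, close to the next class at 114 CPM. The 87 sensory neurons at E11.5 had the highest Plxna3, 41.8 CPM, and Ntn3, 29.5 CPM. Both intervals overlap those of the next classes, motor neurons at 40.2 CPM and chondrogenic cells at 23.4 CPM.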
